A study of Danio rerio with 3 samples.

Results

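The genes described here encode proteins of epithelial junctions and the epithelial cytoskeleton in the zebrafish embryo. They comprise claudins, occludin and its MARVEL-domain relatives, keratins, and a few related proteins. They were chosen by name: a probe was included if the accession given for it in the files matched a RefSeq zebrafish symbol beginning with cldn, tjp, ocln, krt, epcam, cyt1, marveld, cgn or ppl. This rule gave 83 of the 43603 probes on the array and 59 of the 11668 named genes, which were 33 claudins, 18 keratins, 4 tight junction partners and 4 other members.

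Claudins are membrane proteins that line up along the contacts between neighbouring epithelial cells and form the tight junction. The claudins a cell makes set which ions and how much water can pass between cells. Occludin and tricellulin share those contacts, and zona occludens proteins (tjp) and cingulin (cgn) tie them to actin from inside. Keratins are paired type I and type II intermediate filament proteins that give epithelial cells their mechanical strength. In the zebrafish embryo the skin has a superficial layer, the periderm, over basal keratinocytes, and the ear, the lateral line, the gut and the brain ventricles are lined by epithelia with claudins of their own.

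Transcript levels were compared between whole embryos injected at the 1-cell stage with 2 to 3 nl of MO-grnA, a morpholino (an antisense oligomer) against the granulin A gene grna, and wild-type embryos with no treatment, all at 22 hours post fertilization (hpf). Each group of each of the 3 biological replicates pooled 200 embryos, and each replicate was 1 two-colour Agilent array that set morphant against wild-type RNA. The morphant dye was Cy5, except on replicate 3, where the dyes were swapped to Cy3, and replicate 1 was on slide 1 while replicates 2 and 3 were on slide 2. Because the wild-type embryos were not injected, the morpholino and the injection cannot be told apart, and only 1 morpholino was used.

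All values below are log2 ratios of morphant over wild type, with the dye swap turned, unless they are called levels. Between 28635 and 31551 spots per channel were well above background, the ratios correlated between arrays with r of 0.82 to 0.85 across probes, and no probe was saturated. Each ratio was tested against 0 with limma over 25066 tested probes, and "rose" and "fell" are used of genes with a Benjamini-Hochberg adjusted p under 0.05. Of all tested probes, 37.6% passed, 4514 higher and 4921 lower. The grna probe itself read 0.19, 0.34 and 0.39 on the 3 arrays (mean 0.31, SE 0.08, adjusted p = 0.0227); a morpholino acts on translation or splicing, so this level is no check of the labels. With whole embryos, fewer cells of a type and less RNA per cell cannot be told apart.

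Not every member could be measured. RefSeq holds 89 symbols that the naming rule covers, and for 30 of them no named probe was used here. These include every tjp gene (tjp1a, tjp1b, tjp2a, tjp2b and tjp3), the cingulins cgna, cgnb and cgnl1, epcam, the keratins cyt1 and cyt1l, marveld1, marveld2a and 13 claudins. Of the 59 genes with a probe, 51 had a tested one, with 64 tested probes in all. The claudins cldn10a and cldn15lb and the keratin krt93 were not well above background, and the keratins krt5, krt8, krt17, krt92 and krt99 lacked an unmarked spot on at least 1 array. A gene with several tested probes is represented by its brightest one.

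Among the 51 tested genes, 9 rose, 15 fell and 27 did not pass, so 47.1% were called, beside 41.3% of all 9227 named genes tested. The 9 include cldne through its brightest probe, although its probes disagree, as described below. Their median log2 ratio was -0.09, beside -0.00 over all named genes. All 24 called genes had the same sign on all 3 arrays, as did 3805 of the 3810 called named genes. At least 2-fold changes were reached by 4 members, cldnf upward and cldn5a, cldn7a and cldn7b downward, where 4.17% of all named genes were called at that size. Of these, cldn7a came from a dim probe that passed the filter through the wild-type channel alone, which favours a fall. The same holds for cldn15b, also among the 15 that fell.

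The claudins moved in both directions, with more of them lower than higher. Of 31 tested claudins, 5 rose, 10 fell and 16 did not pass, against a background of 19.3% of named genes called higher and 22.0% called lower. Their median was -0.10, with -0.17, -0.07 and -0.08 on the 3 arrays. The values ran from -1.57 for cldn5a to 1.09 for cldnf. With the deposited Agilent processed signals the split was 6 higher and 7 lower, and with a dye term in the fit it was 5 and 5. The 5 that rose include cldne through its brightest probe, and with the mean of all probes of each gene the split was 4 higher and 11 lower. The 10 that fell include cldn7a and cldn15b, whose probes passed the filter through the wild-type channel alone, which favours a fall.

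**Figure D1:**
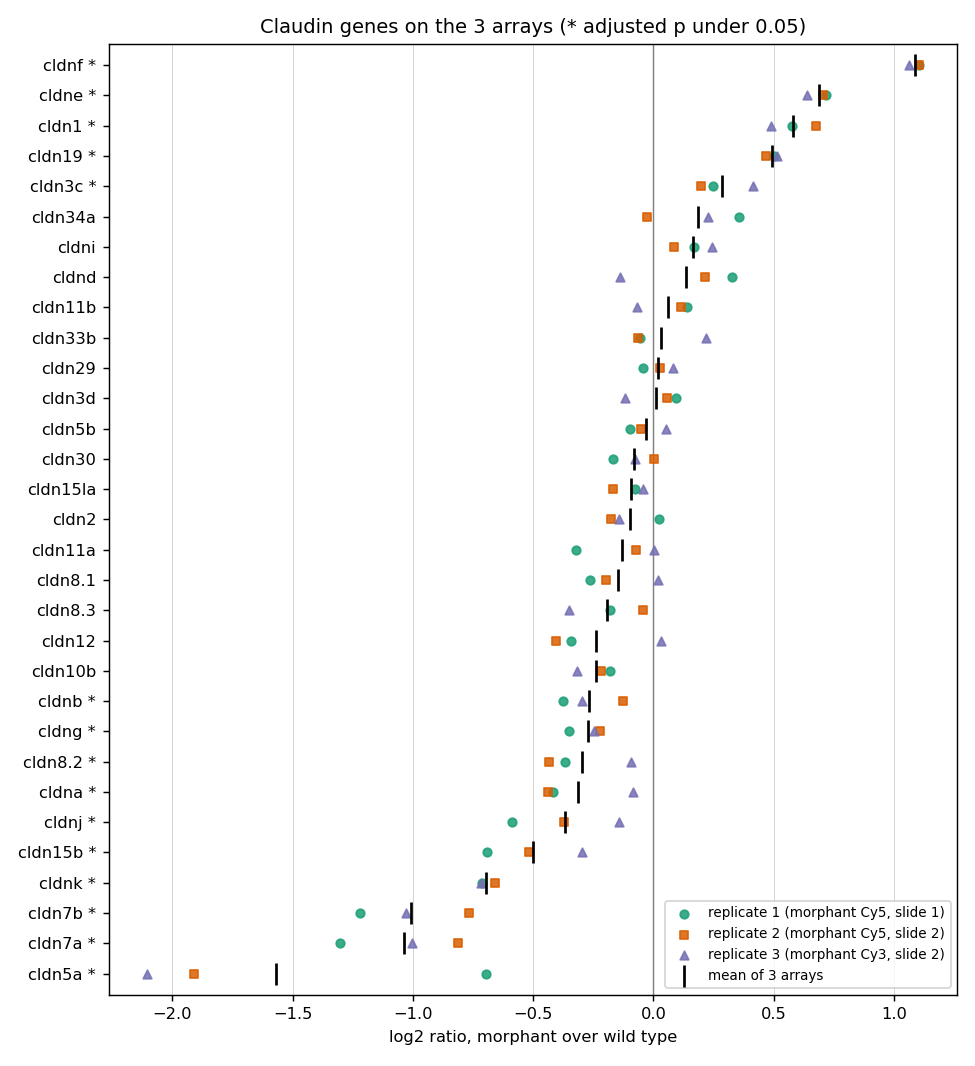
Log2 ratio of morphant over wild type (x axis) for each of the 31 tested claudin genes (y axis, ordered by mean), with 1 point per array and a bar for the mean of the 3 arrays; a star marks an adjusted p under 0.05. The 3 points of cldnf lie close together near 1.09, whereas those of cldn5a spread from -0.70 to -2.10.

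The largest rise was that of cldnf, which like cldne is a claudin of the superficial skin layer in the early zebrafish embryo. Its morphant levels were 11.10, 11.19 and 11.18 on the 3 arrays and its wild-type levels 10.00, 10.09 and 10.12, in log2 intensity, so the groups did not overlap. The ratios were 1.1, 1.1 and 1.06, a 2.13-fold rise (mean 1.09, SE 0.08, adjusted p = 4.66e-05). A second probe of cldnf read 1.28, 1.36 and 1.08, and it passed too (mean 1.24, adjusted p = 4.48e-05). Both probes were thus higher on every array.

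The brightest cldne probe also rose, with ratios of 0.72, 0.71 and 0.64 (mean 0.69, SE 0.08, 1.61-fold, adjusted p = 4.63e-04). The other cldne probes moved the opposite way. One read -0.82, -0.74 and -0.68 (mean -0.75, adjusted p = 3.4e-04). The other read -1.17, -1.14 and -0.53 (mean -0.95, adjusted p = 0.00114). Within each probe the 3 arrays had 1 sign, and between the probes all 3 tests passed in opposed directions, so no direction can be given for cldne as a gene. The mean over the 3 probes was -0.34 (adjusted p = 0.0175), below 0. Which transcript each probe detects was not tested, and the probes' sequences were not used here.

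Opposed calls of this kind were infrequent. Of 10 members with several tested probes, 3 had probes of opposed sign and only cldne had calls in both directions. Among 2667 other named genes with several tested probes, 30.6% had probes of opposed sign and 2.32% had calls in both directions. The other members with opposed signs were cldnb and cldn30. The brightest cldnb probe read -0.38, -0.13 and -0.30 (mean -0.27, adjusted p = 0.0438), while its second probe read 0.17, 0.08 and 0.10 (mean 0.12, adjusted p = 0.281). For cldn30 the probes averaged -0.08 (-0.17, 0.00 and -0.08) and 0.06 (0.24, -0.01 and -0.04), neither of which passed.

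**Figure D2:**
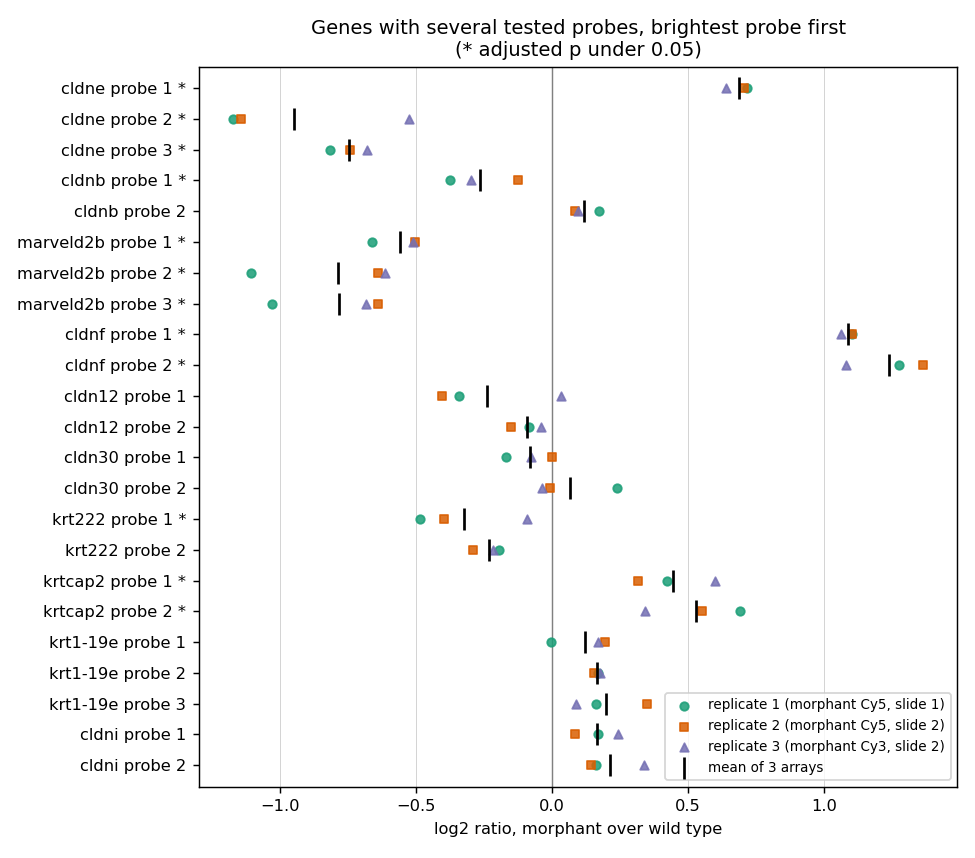
Log2 ratio of morphant over wild type (x axis) for every tested probe of the 10 genes with more than 1 tested probe (y axis, brightest probe of each gene first), with 1 point per array and a bar for the mean; a star marks an adjusted p under 0.05. The brightest cldne probe lies at 0.69 and its other probes at -0.95 and -0.75, while the probes of cldnf and of marveld2b lie on the same side of 0.

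Of the other claudins that rose, cldn1 is the relative of the mammalian claudin that seals the epidermal barrier. It read 0.58, 0.68 and 0.49 (mean 0.58, SE 0.08, 1.5-fold, adjusted p = 0.00129), with every array above 0. The relative of claudin 19, a claudin of kidney tubules and retina in mammals, cldn19 read 0.50, 0.47 and 0.51 (mean 0.50, SE 0.08, adjusted p = 0.00218) from a dim probe. Its value was 1.26 with the Agilent processed signals, and 0.75 with a normexp offset of 16 in place of 50. The smallest called rise was that of cldn3c, formerly cldnh, at 0.25, 0.20 and 0.41 (mean 0.29, adjusted p = 0.0314). It did not pass when replicate 2 (0.33, adjusted p = 0.0716) or replicate 3 (0.22, adjusted p = 0.141) was left out.

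The largest fall among the members was that of cldn5a, a relative of the main claudin of brain vessel endothelium, which in zebrafish also seals the lining of the brain ventricles. Its wild-type levels were 12.38, 12.52 and 12.43 and its morphant levels 11.68, 10.61 and 10.32, so the groups did not overlap. The ratios were -0.70, -1.91 and -2.10, a 2.97-fold fall (mean -1.57, SE 0.24, adjusted p = 0.00162). Their SD was 0.76. The SE is smaller than these 3 values alone would give, because limma pools the variance over all tested probes. The array on slide 1 thus showed a smaller fall than both arrays on slide 2. Without replicate 1 the mean was -2.01, and without replicate 3 it was -1.3. The related cldn5b read -0.10, -0.05 and 0.05 (mean -0.03, adjusted p = 0.787) and did not pass.

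Both relatives of claudin 7, an epithelial claudin that binds EpCAM in mammals, were about 2-fold lower. For cldn7b the wild-type levels were 16.27, 16.13 and 16.22 and the morphant levels 15.05, 15.37 and 15.19, again without overlap. Its ratios were -1.22, -0.77 and -1.03 (mean -1.01, SE 0.10, adjusted p = 2.58e-04). The ratios of cldn7a were -1.3, -0.81 and -1.0 (mean -1.04, SE 0.11, adjusted p = 2.66e-04). The cldn7a probe was dim, well above background on 2 of 3 arrays in the morphant channel. It passed the filter through the wild-type channel alone, which favours a fall, and was not tested when both channels were required. Its ratio was -2.17 with the Agilent processed signals and -1.40 with an offset of 16.

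Further falls seen on every array were those of cldnk and cldn15b. The first, cldnk, is a marker of the myelinating glia of zebrafish. It read -0.71, -0.66 and -0.71 (mean -0.70, SE 0.08, 1.62-fold, adjusted p = 4.33e-04). A relative of claudin 15, which forms cation pores in the mammalian gut, cldn15b was not well above background on any array in the morphant channel, with measured mean levels of 6.37 in morphants and 6.87 in wild type. By the signals measured, cldn15b was 1.41-fold lower (mean -0.50, adjusted p = 0.00544), with ratios of -0.69, -0.52 and -0.29. Without replicate 1 the ratio was -0.41. It passed the filter through the wild-type channel alone, which favours a fall. Its second probe was not well above background in either group. Taking the morphant signal on each array as no lower than the dimmest signal well above background gave the same 1.41-fold. This fold is thus the measured ratio and no lower bound, and with unbalanced dyes it may carry dye bias.

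The remaining claudins that fell did so by small amounts, and their calls depended on single arrays. They were cldnj, needed for otolith formation in the zebrafish ear (-0.59, -0.37 and -0.14, mean -0.37, adjusted p = 0.0241), cldna (-0.42, -0.44 and -0.08, mean -0.31, adjusted p = 0.0375), cldn8.2 (-0.37, -0.43 and -0.09, mean -0.30, adjusted p = 0.0398), cldng (-0.35, -0.22 and -0.25, mean -0.27, adjusted p = 0.0312) and cldnb, a claudin of the skin and the lateral line. All were below 0 on each array by their brightest tested probes, while the second cldnb probe was above 0 on each array. Without replicate 1 or without replicate 2, none of these 5 genes passed. The adjusted p then lay between 0.0719 for cldnj and 0.139 for cldnb without replicate 1, and between 0.0634 for cldnb and 0.212 for cldn8.2 without replicate 2. Without replicate 3, cldng (adjusted p = 0.0905) and cldnb (adjusted p = 0.15) did not pass either. With the Agilent processed signals cldng (adjusted p = 0.0518), cldna (adjusted p = 0.0651), cldnb (adjusted p = 0.0968) and cldn8.2 (adjusted p = 0.112) missed the threshold, and with a dye term all 5 did, from 0.0591 for cldnj to 0.0873 for cldnb.

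The 16 tested claudins that did not pass had values between -0.24 for cldn10b and 0.19 for cldn34a. The nearest to the threshold was cldn10b, at -0.18, -0.22 and -0.32 (adjusted p = 0.0501). With the Agilent processed signals cldn10b (-0.61, adjusted p = 0.00979) and cldn34a (0.38, adjusted p = 0.0435) passed, so the claudins called there are partly other genes. The bright skin claudin cldni read 0.17, 0.09 and 0.24 (mean 0.17, adjusted p = 0.147). The relatives of claudin 11, a claudin of myelin in mammals, averaged -0.13 for cldn11a and 0.06 for cldn11b.

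Of the 4 tested occludin and MARVEL-domain genes, 1 fell, which is 25% called beside 41.3% of all named genes. It encodes tricellulin. The gene is marveld2b, whose product gathers at the corners where cells meet. It read -0.66, -0.50 and -0.51 (mean -0.56, SE 0.08, 1.47-fold, adjusted p = 0.00153). Its other probes averaged -0.79 (adjusted p = 0.00129) and -0.78 (adjusted p = 7.55e-04), so all 3 probes passed in the same direction. The occludin genes did not pass, with oclna at -0.10, 0.18 and 0.20 (mean 0.10, adjusted p = 0.445) and oclnb at -0.13, -0.19 and -0.07 (mean -0.13, adjusted p = 0.241). The related marveld3 read -0.04, 0.09 and -0.01 (mean 0.01, adjusted p = 0.911). The values of oclna and marveld3 lay on both sides of 0.

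The keratins moved equally often in both directions. Of 12 tested keratins, 3 rose, 3 fell and 6 did not pass, which is 50% called, beside 41.3% of all named genes, 19.3% higher and 22.0% lower. Their median was 0.03, with -0.07, 0.01 and -0.00 on the 3 arrays. The median size of a ratio, sign ignored, was 0.23 for keratins and 0.24 for claudins, beside 0.22 for all named genes. No tested keratin reached a 2-fold change. The claudin and keratin counts share the same arrays and the difference between the classes was not tested.

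**Figure D3:**
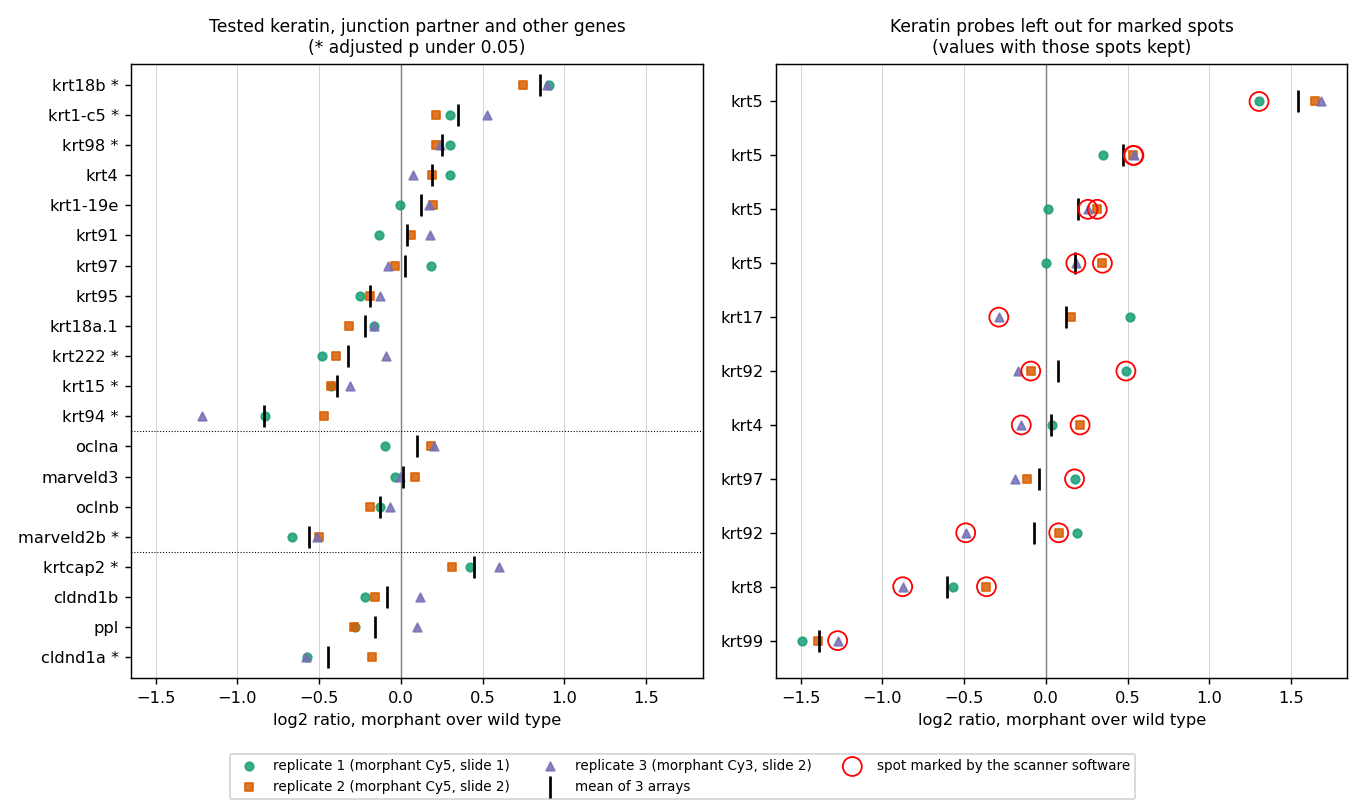
Log2 ratio of morphant over wild type (x axis) with 1 point per array and a bar for the mean. Left, tested keratins, then the junction partners, then the other members (a star marks an adjusted p under 0.05); right, the 11 keratin probes left out because the scanner software marked a spot (red rings), with those spots kept, where krt5 reaches 1.55 and krt99 -1.38.

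The largest rise among tested keratins was that of krt18b, a type I keratin related to the keratin 18 of simple epithelia. Its morphant levels were 13.47, 13.27 and 13.36 against 12.57, 12.53 and 12.46 in wild type, with no overlap. The ratios were 0.90, 0.75 and 0.89 (mean 0.85, SE 0.08, 1.80-fold, adjusted p = 2.01e-04). Its relative krt18a.1 read -0.17, -0.32 and -0.17 (mean -0.22, adjusted p = 0.0712) and did not pass. The other called rises were smaller. One was krt1-c5 at 0.30, 0.21 and 0.52 (mean 0.35, adjusted p = 0.0199), which did not pass without replicate 3 (0.26, adjusted p = 0.108). The other was krt98 at 0.30, 0.22 and 0.24 (mean 0.25, adjusted p = 0.0388), which did not pass when replicate 1 (adjusted p = 0.103), replicate 2 (adjusted p = 0.128) or replicate 3 (adjusted p = 0.106) was left out, nor with a dye term (adjusted p = 0.0795).

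The largest fall among tested keratins was that of krt94, with morphant levels of 12.84, 13.18 and 12.75 and wild-type levels of 13.67, 13.65 and 13.97. Its ratios were -0.83, -0.47 and -1.22 (mean -0.84, SE 0.13, 1.79-fold, adjusted p = 0.00225), all below 0 with a wider spread than those of krt18b. The relative of keratin 15, a type I keratin of basal keratinocytes in mammals, krt15 read -0.43, -0.43 and -0.31 (mean -0.39, SE 0.08, adjusted p = 0.00728). For krt222 the values were -0.49, -0.40 and -0.09 (mean -0.32, adjusted p = 0.0341), and it did not pass when replicate 1 (adjusted p = 0.0949) or replicate 2 (adjusted p = 0.137) was left out, nor with the Agilent processed signals (adjusted p = 0.0758) or a dye term (adjusted p = 0.0679). The second probe of krt222 averaged -0.23 and did not pass.

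Skin keratins that did not pass included krt4, the keratin whose promoter marks superficial skin cells, at 0.30, 0.19 and 0.07 (mean 0.19, adjusted p = 0.119). The basal keratinocyte keratin krt1-19e, formerly krtt1c19e, read -0.00, 0.20 and 0.17 (mean 0.12, adjusted p = 0.296), and its other probes averaged 0.17 and 0.20. The values of krt91 (0.03), krt97 (0.02) and krt95 (-0.19) did not pass either. With the Agilent processed signals krt95 passed (-0.68, adjusted p = 0.0373). Its dim probe met the filter through the wild-type channel alone, which favours a fall.

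The keratin counts leave out the brightest keratins, which the scanner software had marked as non-uniform or as outliers. Of 26 keratin probes well above background, 11 (42.3%) lacked an unmarked spot on some array, against 1 of 39 claudin probes (2.56%) and 12.6% of all probes. Among the brightest 1% of all probes above background 89.2% were lost this way, and 6 of 6 keratin probes there were. The keratins were also brighter than the claudins as a class, with a median mean intensity of 13.15 against 10.28 on the log2 scale, where all named genes had 10.97.

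With the marked spots kept, 17 keratins could be tested, and 3 rose, 5 fell and 9 did not pass (47.1% called, where 40.4% of all named genes were). The largest fall was then krt99, at -1.49, -1.39 and -1.27 (mean -1.38, 2.61-fold, adjusted p = 3.89e-05), with only the spot of replicate 3 marked. The type II keratin krt8, the usual partner of keratin 18, read -0.57, -0.36 and -0.88 (mean -0.60, adjusted p = 0.00493), with the spots of replicates 2 and 3 marked. Both were below 0 on every array. The 4 probes of krt5, a type II keratin of the skin, differed in size. The dimmest of them read 1.3, 1.65 and 1.69 (mean 1.55, 2.92-fold, adjusted p = 4.96e-05), with only replicate 1 marked. The next averaged 0.47 (adjusted p = 0.00446), and the brightest ones averaged 0.20 (adjusted p = 0.133) and 0.18 (adjusted p = 0.177). The counts represent krt5 by its brightest probe (0.18), so it is among the 9 that did not pass. The 3 that rose were krt18b, krt1-c5 and krt98. The krt17 probe averaged 0.13 and the krt92 probes -0.07 and 0.08, with values on both sides of 0. How far marking and brightness shape these ratios was not tested.

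Some members that lie near each other in the genome differed in direction, where 19.3% of all named genes were called higher and 22.0% lower. Whether directions are mixed more often in such groups than elsewhere was not tested. Neighbours were taken from the order of protein-coding genes in the RefSeq table, at most 3 positions apart, and 14 such groups of members were found. In 1 group, cldnj, cldne, cldnf and cldna follow each other: the outer genes cldnj and cldna fell by 0.37 and 0.31, and the inner cldnf rose by 1.09 with both of its probes, while the cldne probes disagreed as described above. In the group of krt93, krt94, krt98, krt15 and krt99, krt94 and krt15 fell and krt98, between them, rose by 0.25. In this group krt99 had no tested probe and read -1.38 with its marked spot kept. Among cldn3c, cldn3d, cldnb, cldn29, cldnd, cldn28 and cldn30, cldn3c rose and cldnb fell by its brightest probe alone. In that group cldn3d, cldn29, cldnd and cldn30 did not pass. The genes cldn8.2, cldn8.3 and cldn8.1 all lay below 0 (-0.30, -0.19 and -0.15), of which only cldn8.2 passed. The calls of cldnj, cldna, cldnb, cldn8.2, cldn3c and krt98 were each lost when some single array was left out, as given above. Cross-hybridization between such related neighbours was not tested.

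**Figure D4:**
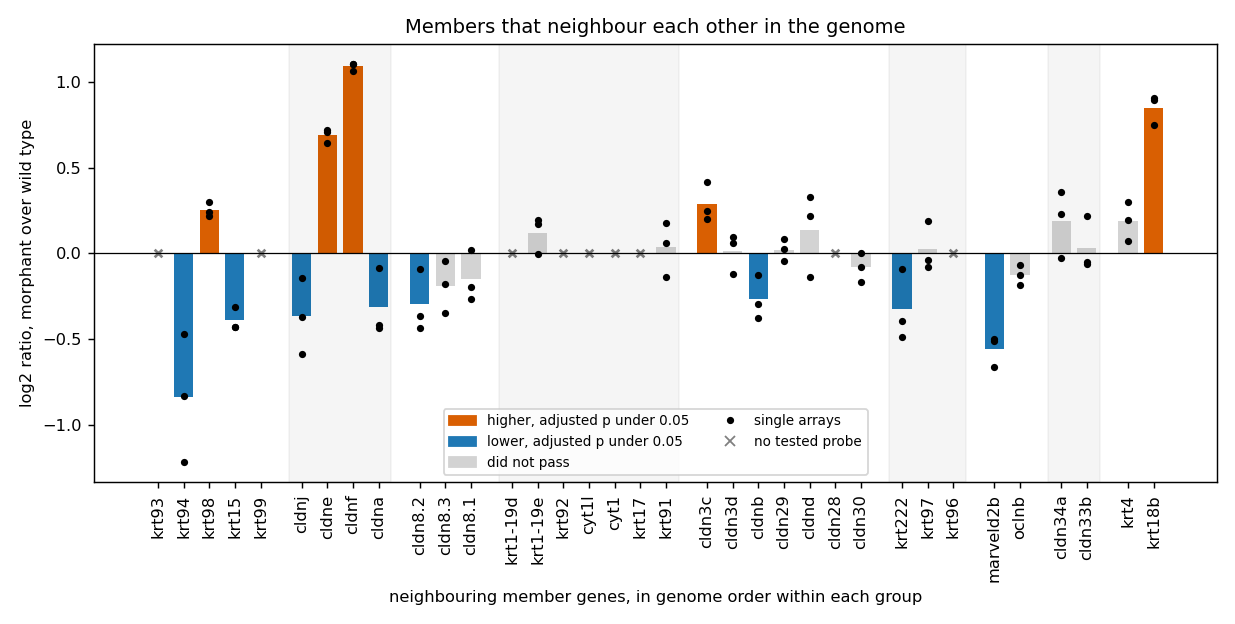
Mean log2 ratio of morphant over wild type (bars, y axis) with single arrays as points, for member genes that neighbour each other in the genome, in genome order within each shaded or unshaded group (x axis); groups with at least 2 tested genes are drawn, orange and blue bars were called higher and lower by the brightest probe, grey bars did not pass and crosses had no tested probe. In the group of cldnj, cldne, cldnf and cldna the outer bars lie at -0.37 and -0.31 and the inner bars at 0.69 (cldne, brightest probe only) and 1.09.

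The 4 other members are not claudins or keratins by function. krtcap2, a subunit of the complex that attaches N-glycans to new proteins, rose at 0.42, 0.31 and 0.60 (mean 0.45, SE 0.09, adjusted p = 0.00605), and its second probe averaged 0.53 (adjusted p = 0.00362). The claudin-domain gene cldnd1a fell at -0.58, -0.18 and -0.58 (mean -0.45, SE 0.10, adjusted p = 0.0116), and it did not pass with replicate 3 left out (-0.38, adjusted p = 0.0904) or with the Agilent processed signals (-0.50, adjusted p = 0.0577). Its relative cldnd1b averaged -0.09 and did not pass. Periplakin, ppl, which links keratin filaments to desmosomes, read -0.28, -0.28 and 0.10 (mean -0.16, adjusted p = 0.257). A second ppl probe was not tested because its spot on replicate 1 was marked. It read 0.01 and 0.38 on replicates 2 and 3, above 0.

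Most of these calls were lost when the loess normalization used here was replaced by median centring. The deposited Agilent processed signals were not put through that loess step, and with them 13 claudins, 6 keratins and 9390 of all tested probes passed. Whether Agilent's own processing included a dye normalization that depends on intensity was not checked. These counts thus cannot show whether the calls hold without such a step. With the median of each array centred in place of loess, 715 of all tested probes passed, and of the tested members only cldnf (1.24, adjusted p = 0.0384) and cldn7a (-1.01, adjusted p = 0.048) did. Every gene called with loess kept its sign, whereas cldn5b (0.13), cldn30 (0.07), cldn2 (0.05) and oclnb (0.03), which were not called, changed theirs. For cldn5a the mean was then -1.41 (adjusted p = 0.113), for cldn7b -0.77 (adjusted p = 0.295), for cldne 0.86 (adjusted p = 0.181) and for krt18b 1.01 (adjusted p = 0.0936).

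**Figure D5:**
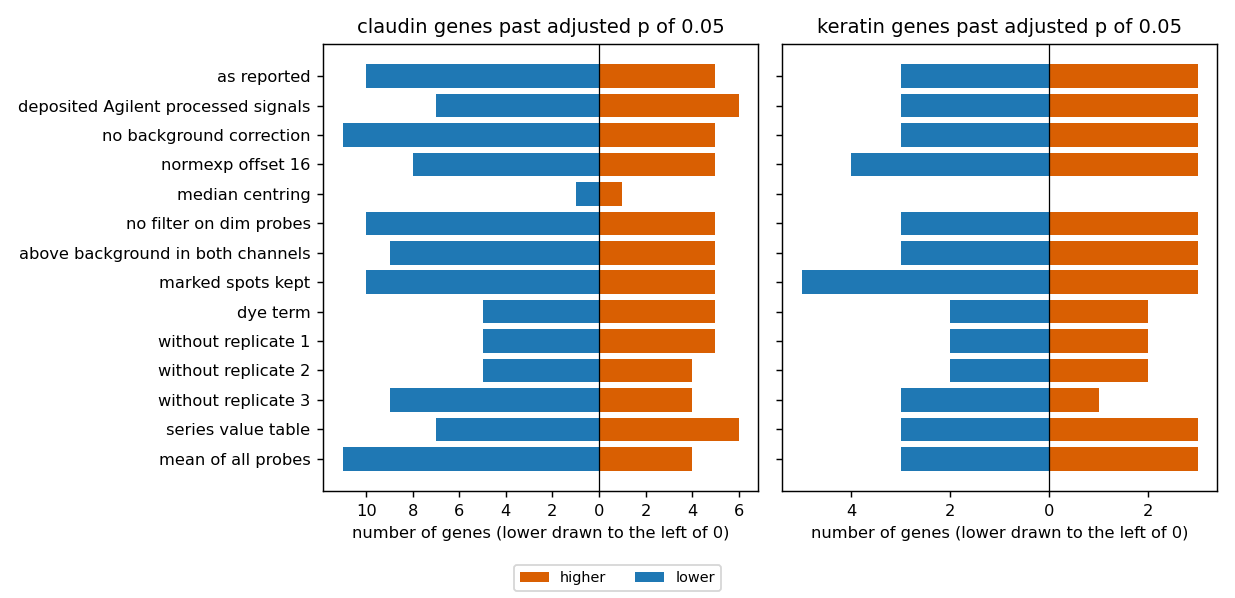
Number of claudin genes (left) and keratin genes (right) past an adjusted p of 0.05 under each processing setting (y axis), with genes higher in morphants drawn to the right of 0 and genes lower in morphants to the left (x axis, counts). Median centring leaves 1 claudin on each side and no keratin, whereas the other settings give 9 to 16 claudins and 4 to 8 keratins.

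Genes of other junctions and of the cells that carry the members were counted without the members themselves. Of 8 tested adherens junction and desmosome genes 2 rose and 1 fell. The fall was that of cdh1, which encodes E-cadherin, the adhesion protein of epithelial adherens junctions, at -1.71, -0.94 and -1.30 (mean -1.32, SE 0.14, adjusted p = 2.81e-04). Its partner alpha-catenin, ctnna1, rose by 0.65 (adjusted p = 0.00243) and the plakophilin pkp2 by 0.39 (adjusted p = 0.00916). Of 12 tested polarity and other junction genes none rose and 5 fell, led by pard3ab (-0.70, adjusted p = 0.00351), cxadr (-0.65, adjusted p = 7.51e-04) and pals1a (-0.53, adjusted p = 0.00493). The second pard3ab probe averaged 0.17. The shares called, 37.5% and 41.7%, stand beside the 41.3% of all named genes.

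Of 7 tested periderm genes that are no members 1 rose (sult1st1, 0.42) and 1 fell (ptgs2a, -0.34), and icn read -0.27 (adjusted p = 0.0761). Their summed level was 16.50 to 16.62 in morphants and 16.55 to 16.59 in wild type, on the log2 scale. Of 9 basal epidermis genes 1 rose (lamb4, 0.41) and 2 fell (cdh1 and lama5, the latter at -0.40), and the summed level was 16.95 to 16.99 against 17.31 to 17.42. The basal keratinocyte factor tp63 read 0.24 (adjusted p = 0.0562). The periderm sums thus overlapped between the groups and the basal sums did not. However, cdh1 alone went from 15.28 in wild type to 13.97 in morphants, so the basal sum is no measure of the basal cells as a class. The brightest periderm genes, anxa1b (15.61 in morphants, 15.42 in wild type) and icn (14.54 and 14.80), did not pass. The periderm sum is likewise no measure of the periderm as a class. Of the periderm list 28.6% were called and of the basal list 33.3%, beside 41.3% of all named genes.

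Of 9 ionocyte genes 4 rose and 2 fell, led by trpv6 (0.75), atp6v0a1a (-0.58, with a second probe at -0.02) and atp1b1b (0.54), and the summed levels overlapped at 16.38 to 16.71 and 16.38 to 16.66. The other ionocyte gene that fell, ca2 (-0.33), had a second probe at 0.77, above 0. The brightest genes in the ionocyte sum were atp6v1aa (15.40 in morphants, 14.91 in wild type) and ca2 (14.77 and 15.10). They were called in opposite directions, so this sum is no measure of ionocytes as a class. Of 5 ear and lateral line genes 3 fell, oc90 (-0.66), pax2a (-0.64) and eya1 (-0.53), with summed levels of 15.86 to 16.13 against 16.57 to 16.69. The second probes of oc90 and eya1 read 1.14 and 0.31, above 0, and the oc90 probe used made up most of the summed level, at 16.38 in wild type. That list also names cldna, cldnb and cldn7b, which were called lower by their brightest probes. The calls of cldna and cldnb depended on single arrays, and the second cldnb probe averaged 0.12, above 0. The part of ear and lateral line cells in these calls was not tested. The hatching gland genes he1.2 (0.62) and he1.3 (-0.43) changed in opposite directions among 6 tested. On that list agr2 read 0.23 (adjusted p = 0.0896) and did not pass, with a second probe at -0.13. The summed levels were 16.73 to 17.11 and 16.79 to 17.08. The brightest genes in this sum, cd63 (15.60 in morphants, 15.64 in wild type) and xbp1 (15.26 and 15.43), did not pass. It is thus no measure of the hatching gland as a class. Of 3 tested genes on the yolk syncytial layer list, gata6 (-0.45) and hnf4a (-0.47) fell and slc26a1 read -0.10. Their summed levels overlapped slightly, at 12.50 to 12.67 and 12.66 to 12.85. The listed genes mxtx2, apobb.1 and mttp had no tested probe, and the member on that list, cldn3c, rose (0.29). Whether the signal of these genes came from that layer was not tested. These lists are short, and the shares called, 66.7% for ionocytes, 60% for ear and lateral line, 33.3% for hatching gland and 66.7% for yolk syncytial layer, stand beside the 41.3% of all named genes.

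Of 7 tested genes on a list of epidermal appendage and intermediate filament genes, the muscle filament gene desma rose by 0.80 and the mesenchymal vim by 0.51. On that list lmna fell by 0.28 (42.9% called). The 7 include evpla, which is no filament gene and is also on the periderm and desmosome lists. Their summed level was 17.30 to 17.67 in morphants and 17.06 to 17.17 in wild type. However, desma alone went from 15.88 in wild type to 16.69 in morphants, so this sum is no measure of these genes as a class. Of 16 epithelial transcription factors none rose and 5 fell, which is 31.2% called beside 41.3% of all named genes, with 22.0% of those lower. They were led by esrp1, a splicing regulator of epithelia (-0.52), foxi1 (-0.50) and ovol1a (-0.47). The second esrp1 probe averaged -0.13. The summed level of the transcription factors was 16.68 to 16.78 in morphants and 16.87 to 16.93 in wild type. The brightest genes in this sum did not pass. They were tfap2a (14.58 in morphants, 14.78 in wild type) and tfap2c (14.46 and 14.60), whose second probe averaged 0.36. This sum is thus no measure of these factors as a class.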

How the data were processed

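Per the file headers, the authors quantified each array with Agilent Feature Extraction 10.5.1.1 (8.5.1.1 per the submitters' processing notes). For every spot, the deposited files hold a median and a background intensity per dye, a processed intensity per dye and the log10 of red over green. The series' deposited value table held the same log10 ratios, with replicate 3 turned (largest difference 4.95e-06) and a median of 0 in each column. Direction rests on the dyes in the labels.

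From the median intensities, background was corrected with normexp (offset 50) and ratios were loess-normalized in limma 3.58.1 under R 4.3.3, with control and marked spots at weight 0. On replicates 1, 2 and 3, 7.49%, 0.915% and 0.909% of spots were marked. The offset pulls dim ratios toward 0. Spots of a probe were averaged. A probe was kept if well above background on all 3 arrays of either group (28688 probes) and with an unmarked spot on every array (25066). Log2 ratios were tested against 0 with lmFit and eBayes, two-sided, adjusted by Benjamini-Hochberg over these probes. SE is the moderated standard error, n = 3 arrays, whose number limits the precision and leaves 2 residual degrees of freedom per probe before pooling. Levels are log2 intensities per channel after loess and Aquantile normalization. The fit was tested on simulated data. These had independent normal noise and no slide or dye effects, so that test cannot cover such effects.

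Accessions without versions were named through the RefSeq table of assembly GRCz12tu (16770 probes). Coordinates are left out because the files use another build. Of claudins and keratins, up to 12 called genes each with the largest ratios were to be named, with all junction partners, ppl and probes that disagree, and of each list the 3 largest changes; further members named were chosen after their values were seen. Members and lists were chosen with earlier results of these data known. Alternatives changed the background correction, normalization, filters, marked spots, dye term, replicates, probe choice and source table.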

Additional observations from a re-analysis of the deposited data

How the results depend on the processing

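Across the alternatives to the values reported, 350 of the comparisons for single named members kept their direction and their side of the threshold, 68 lost their call and 5 changed sign. These totals include both the Agilent processed signals and the deposited value table, which hold the same ratios. Each of the 2 adds 27 kept and 6 lost calls, so they are not separate checks. The settings with no filter on dim probes and with both channels above background used the same ratios as those reported. No sign could change there, and they add 33 and 31 of the comparisons that were kept. With median centring, 2 claudins (1 higher, 1 lower), 0 keratins, 0 junction partners and 715 probes (409 higher, 306 lower) passed, the claudin median was -0.026 and the keratin median 0.21, oclnb read 0.025 and the brighter cldn30 probe 0.071; it also moved the median of all tested probes to 0.10, and the cause of the lost calls was not tested. With the mean of all its probes cldne read -0.34 (adjusted p = 0.0175), since its probes oppose each other. Leaving out each array in turn gave 9 to 13 claudins called, lowest without replicate 2, and 6187 to 8233 probes, lowest without replicate 3. Without replicate 1 the dimmer cldn30 probe read -0.022, and its values with an array left out ran up to 0.11; those of marveld3 ran from -0.023 without replicate 2 to 0.039 without replicate 1. The other settings left the counts of claudins, keratins and junction partners within 1.5 times those reported. Slide as a random block could not be fitted with 3 arrays on 2 slides and was not run; replicates 2 and 3 alone (slide 2) gave 10 claudins and 4 keratins. Each ratio already pairs the RNAs of 1 replicate on its array, so no further block was fitted. Dim probes limit the size of a fold: cldn15b read -1.84 with the Agilent processed signals and -0.77 with an offset of 16.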
